A study of Mus musculus with 2 samples.

Results

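A set of 6 mouse genes with roles in lipid handling and the extracellular matrix were followed through 2 single-cell RNA libraries of spleen: Fn1, Cd93, Trem2, Apoe, Apoc2 and Pltp. They are 6 of the 32285 genes in the deposited feature tables, each with 1 row. All but Apoe had been picked because they were higher in monocytes of the Glutoborin library. The contrast between the libraries in monocytes therefore chose these 5 genes, and it is given here as a description. Apoe was added as a related gene, and its values in these data were also known.

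Wild-type mice of both groups were infected with 10000 iRBCs (the labels do not spell out this abbreviation) by intraperitoneal injection. They received Glutoborin or Vehicle on days 2 and 4. Spleens were taken on day 5, CD45+ cells were sorted, and 1 10x library was made for each treatment. The sources used here do not say how many mice went into a library. With 1 library per treatment no difference has a replicate check, so no p-value is given. The intervals are exact at 95% and describe counting error alone, and log2 ratios are Glutoborin over Vehicle.

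Fibronectin, the product of Fn1, is an extracellular matrix glycoprotein that cells bind through integrins. Cd93 and Trem2 are receptors of myeloid cells: Trem2 binds lipids and lipoproteins and signals through the adaptor Tyrobp, and Cd93 is a transmembrane C-type lectin of phagocytes, endothelium and early B cells. Apoe and Apoc2 are apolipoproteins, Apoc2 being the cofactor of lipoprotein lipase, and Pltp moves phospholipids between lipoproteins. Apoe and Pltp are known targets of the liver X receptors, the sterol sensors of macrophages, and red pulp macrophages of the spleen take up aged and damaged erythrocytes.

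The Glutoborin library held 9646 barcodes and 56862506 UMIs (unique molecules counted), and the Vehicle library held 8204 barcodes and 48526451 UMIs. After barcodes with at least 10% mitochondrial UMIs and called doublets were left out, 8901 Glutoborin and 6492 Vehicle cells remained. The mitochondrial limit removed 4.07% (3.69 to 4.49%) of Glutoborin barcodes against 18.5% (17.6 to 19.3%) of Vehicle barcodes. The libraries shared 24 barcodes. Ptprc, which encodes CD45, had a UMI in 94.5% of Glutoborin and 96.0% of Vehicle cells. Cells were clustered and named from marker genes, and a class name means only that the cells carry markers like those of the named type.

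Monocytes made up 167 Glutoborin cells and 236 Vehicle cells, with 1778687 and 2381082 UMIs and median depths of 11273 and 10879.5 UMIs. They fell into 3 clusters. The classical-like cluster, led by Fn1, F13a1 and Chil3, had 93 Glutoborin and 107 Vehicle cells. A second cluster, here cluster M2, was led by Cfb, Cxcl10 and Ifi205 and had 34 Glutoborin and 89 Vehicle cells. The nonclassical-like cluster, led by Fcgr4, Ace and Fabp4, had 40 cells in each library. Clusters that also carried lymphocyte genes, 0.573% of Glutoborin and 1.12% of Vehicle cells, were kept out of the monocytes by limits set after the clusters had been seen. Since Fn1 led the classical-like cluster, its concentration there is a property of the clustering and no finding.

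Apoe and Apoc2 lie 18167 bases apart on the minus strand of chromosome 7 (GRCm38), at 19696109 to 19699188 and 19671579 to 19677941. Pltp is at 164839518 to 164857711 and Cd93 at 148436640 to 148443563 on the minus strand of chromosome 2. Trem2 is at 48346401 to 48354147 on the plus strand of chromosome 17, and Fn1 is at 71585520 to 71653200 on the minus strand of chromosome 1. All 6 are annotated as protein coding. Pltp overlaps Ctsa on the opposite strand, and Fn1 overlaps the antisense gene Apol7d, which had 6 Glutoborin and 3 Vehicle UMIs. Apoc2 overlaps the readthrough gene Gm44805 of the same strand, which has no row in the feature tables. The sources used here do not state how counting treated strand, and reads in the overlap of Pltp and Ctsa were not examined.

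The 250 bases before the annotated start are shown for the 4 of 6 genes that matched the RefSeq promoter table of GRCm38.p6, because these genes were higher together in classical-like monocytes. Their windows are chr7:19699189-19699438 (minus strand) for Apoe, chr7:19677942-19678191 (minus strand) for Apoc2, chr2:164857709-164857958 (minus strand) for Pltp and chr17:48346151-48346400 (plus strand) for Trem2. Each is written 5′ to 3′ on the gene's own strand. Capitals mark the PU.1 core GAGGAA, the binding letters of a myeloid transcription factor, and the AP-1 site TGANTCA, on either strand.
Apoe: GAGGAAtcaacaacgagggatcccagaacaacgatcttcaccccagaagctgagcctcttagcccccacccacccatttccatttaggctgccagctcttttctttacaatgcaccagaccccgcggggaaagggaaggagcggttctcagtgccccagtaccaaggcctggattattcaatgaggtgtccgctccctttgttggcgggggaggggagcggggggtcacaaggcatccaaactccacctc
Apoc2: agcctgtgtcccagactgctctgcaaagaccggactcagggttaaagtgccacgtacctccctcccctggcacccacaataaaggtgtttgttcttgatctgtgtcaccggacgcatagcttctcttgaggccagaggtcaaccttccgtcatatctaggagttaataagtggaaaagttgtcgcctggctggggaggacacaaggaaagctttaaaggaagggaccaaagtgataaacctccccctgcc
Pltp: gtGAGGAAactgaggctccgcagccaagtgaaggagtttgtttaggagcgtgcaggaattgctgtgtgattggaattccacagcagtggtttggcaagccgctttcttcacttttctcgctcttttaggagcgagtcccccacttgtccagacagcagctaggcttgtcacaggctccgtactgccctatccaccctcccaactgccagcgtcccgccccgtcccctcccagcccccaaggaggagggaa
Trem2: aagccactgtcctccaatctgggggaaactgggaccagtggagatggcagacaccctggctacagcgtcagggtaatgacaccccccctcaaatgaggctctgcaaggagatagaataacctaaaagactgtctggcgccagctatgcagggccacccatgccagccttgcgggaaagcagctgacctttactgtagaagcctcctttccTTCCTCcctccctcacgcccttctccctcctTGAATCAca
The PU.1 core had 1 match in the windows of Apoe, Pltp and Trem2 and 0 in that of Apoc2, and 23.3% of all 32851 promoter windows of this length held it. The AP-1 site had 1 match, 9 bases before the start of Trem2, and 6.75% of all windows held it. The DR4 liver X receptor element, a repeat of AGGTCA with a spacer, had 0 matches in these 4 windows, beside 0.0152% of all windows. So rare an exact match would be missing from almost any 4 windows, so this 0 carries no information. A single AGGTCA had 1 match in Apoc2, 115 bases before the start, and 1 in Trem2, 68 bases before it. Apoe and Pltp had 0, and 14.0% of all windows held it. These matches describe letters in a short window and say nothing about binding.

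In monocytes as 1 class all 6 genes were at least 1.5-fold higher in the Glutoborin library, beside 3.63% of the 6783 genes with at least 50 UMIs (246 genes) and 5.43% at least 1.5-fold lower (368 genes). Since this contrast chose the genes, the count is no evidence of its own. Fn1 had 1943 UMIs and 1092 CPM (UMIs per 1000000 of the class) in Glutoborin monocytes, against 999 UMIs and 419.6 CPM in Vehicle monocytes, a log2 ratio of 1.38 (1.27 to 1.49). Apoe had 2224 UMIs and 1250.4 CPM in Glutoborin monocytes, against 1146 UMIs and 481 CPM in Vehicle monocytes, a log2 ratio of 1.38 (1.27 to 1.48). Apoc2 had 780 UMIs and 439 CPM in Glutoborin monocytes, against 406 UMIs and 171 CPM in Vehicle monocytes, a log2 ratio of 1.36 (1.19 to 1.54). The other 3 genes rested on fewer molecules and had wider intervals. Cd93 had 132 UMIs (74.2 CPM) in Glutoborin and 78 UMIs (32.8 CPM) in Vehicle monocytes, a log2 ratio of 1.18 (0.77 to 1.60). Trem2 had 163 UMIs (91.6 CPM) in Glutoborin and 100 UMIs (42.0 CPM) in Vehicle monocytes, a log2 ratio of 1.13 (0.76 to 1.5). Pltp had 131 UMIs (73.6 CPM) in Glutoborin and 78 UMIs (32.8 CPM) in Vehicle monocytes, a log2 ratio of 1.17 (0.75 to 1.59).

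Genes with an interval above 0 and at least 50 CPM in Glutoborin monocytes were ranked by the lower bound of the interval. Among them the 6 genes held ranks 1, 2, 4, 6, 7 and 8. Since this contrast chose 5 of the 6, the ranks are no evidence of their own. S100a8, a calcium-binding protein abundant in neutrophils and early monocytes, stood at rank 3 with a log2 ratio of 1.52 (1.27 to 1.77). Ndst1, an enzyme of heparan sulfate synthesis, stood at rank 5 with 1.34 (0.82 to 1.88). Just inside the last member was Pltp with a lower bound of 0.75, and just outside was Lcn2, a siderophore-binding granule protein, at 1.09 (0.68 to 1.5). Genes of the neutrophil marker list were also higher in Glutoborin monocytes, with 528 CPM in sum against 278 CPM in Vehicle monocytes. Of its 8 genes Ly6g had no UMI in either library and Retnlg had 0 Glutoborin UMIs and 1 Vehicle UMI, while Cxcr2 had 1 and Mmp9 had 2 UMIs in Glutoborin and both had 0 in Vehicle. By cluster, the sum of the list was higher in Glutoborin only in classical-like monocytes, with 719 CPM against 360 CPM in Vehicle. It was 172 CPM in Glutoborin and 190 CPM in Vehicle cells of cluster M2, and 112 CPM and 123 CPM in nonclassical-like cells. The part of neutrophil RNA in the ratios was not tested.

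**Figure D1:**
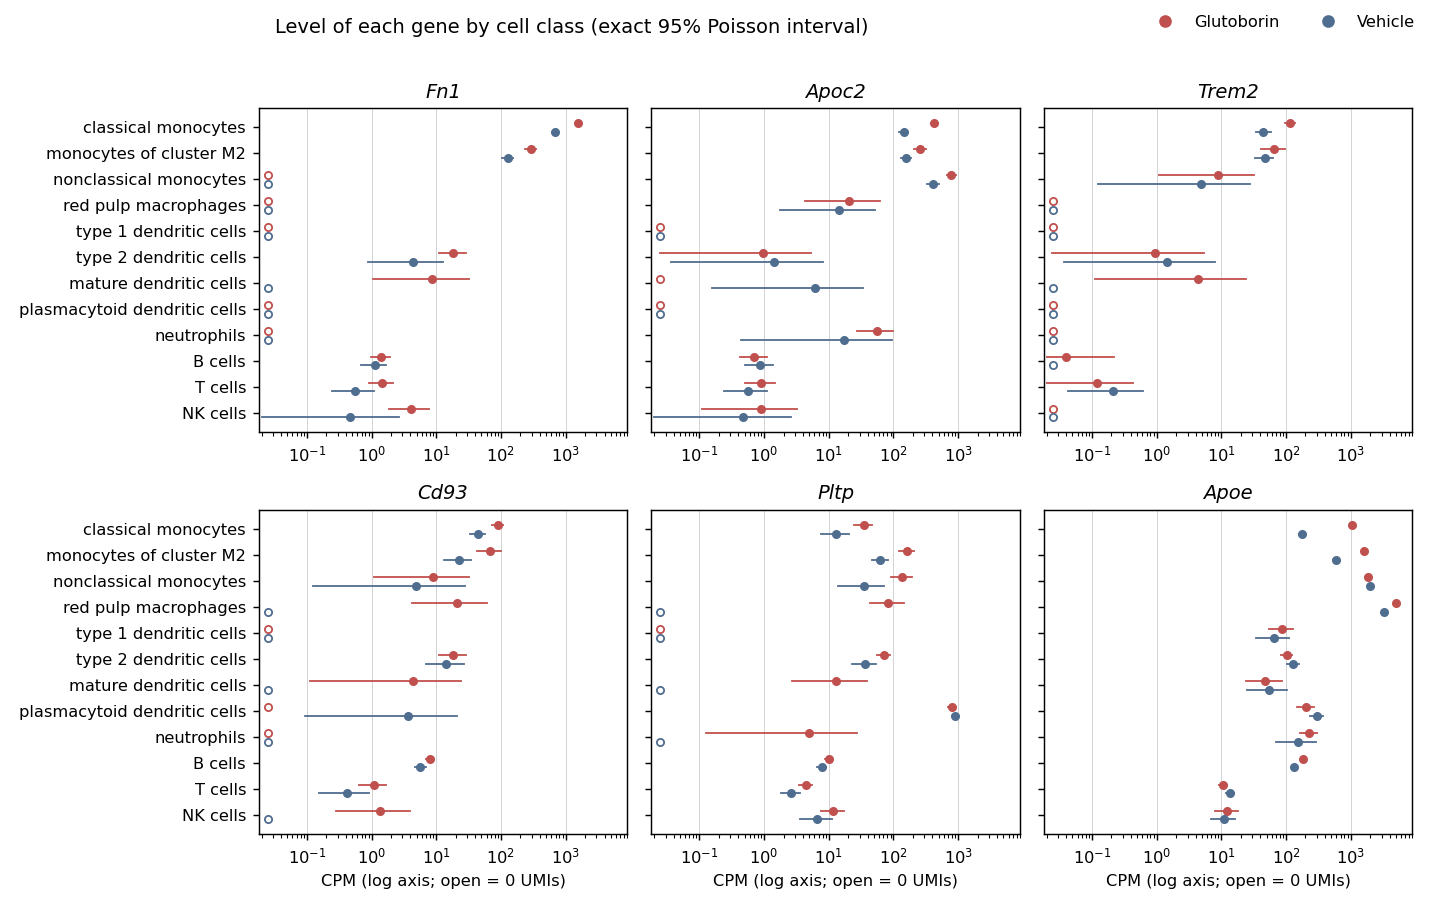
Level of each of the 6 genes by cell class in CPM on a log axis, Glutoborin above Vehicle, with exact 95% Poisson intervals and open circles at the left edge for 0 UMIs. In both libraries Fn1 and Cd93 were highest in classical-like monocytes, Apoc2 in nonclassical-like monocytes, Pltp in plasmacytoid dendritic cells and Apoe in red pulp macrophages; Trem2 was highest in classical-like monocytes of Glutoborin and had overlapping intervals in classical-like cells and cluster M2 of Vehicle.

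Fn1, the matrix gene, was nearly restricted to monocytes: 81.5% of its UMIs in kept Glutoborin cells and 81.1% of those in kept Vehicle cells lay in that class. In classical-like monocytes it had 1835 UMIs (1551 CPM) in the Glutoborin library and 889 UMIs (674 CPM) in the Vehicle library, a log2 ratio of 1.20 (1.09 to 1.32). Per cell, the lowest, median and highest values were 1.04, 13.8 and 46.7 UMIs per 10000 in Glutoborin cells, against 0, 5.48 and 28.8 in Vehicle cells. The cells of the libraries overlapped, while the whole distribution stood higher in the Glutoborin library: 68 of 93 Glutoborin cells and 35 of 107 Vehicle cells held at least 10 UMIs. In cluster M2 it had 108 UMIs (289.9 CPM) in the Glutoborin library and 110 UMIs (128 CPM) in the Vehicle library, a log2 ratio of 1.18 (0.78 to 1.58). That ratio rested on few cells, since 81.5% of the Glutoborin UMIs lay in 10 cells, and without the 10 richest cells of each library it was 0.27 (-0.56 to 1.04). Those 10 cells are a larger part of the 34 Glutoborin than of the 89 Vehicle cells of cluster M2, which by itself tends to lower the ratio. This holds for every value given for cluster M2 without the 10 richest cells. Nonclassical-like monocytes and red pulp macrophages had 0 Fn1 UMIs in both libraries. A count of 0 allows up to 13.5 CPM in Glutoborin and 14.8 CPM in Vehicle nonclassical-like monocytes, taking 3 UMIs per library as the limit.

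Trem2, the lipid receptor, had 137 UMIs (116 CPM) in Glutoborin and 59 UMIs (44.7 CPM) in Vehicle classical-like monocytes, a log2 ratio of 1.37 (0.92 to 1.84). It was seen in 56 of 93 Glutoborin and 35 of 107 Vehicle cells of that cluster. In cluster M2 it had 24 UMIs (64.4 CPM) in the Glutoborin library and 40 UMIs (46.5 CPM) in the Vehicle library, a log2 ratio of 0.47 (-0.33 to 1.23), so a difference was not detectable at this depth; without the 10 richest cells of each library 3 Glutoborin and 13 Vehicle UMIs gave -0.57 (-3.03 to 1.29). Nonclassical-like monocytes held 2 Glutoborin UMIs and 1 Vehicle UMI. Red pulp macrophages, the resident phagocytes of the spleen, held 0 in either library, which allows up to 20.8 CPM in Glutoborin and 21.6 CPM in Vehicle macrophages. Trem2 and Fn1 thus followed the same order over the monocyte clusters in the Glutoborin library, whereas in Vehicle the Trem2 intervals of classical-like cells (34.1 to 57.7 CPM) and cluster M2 (33.3 to 63.4 CPM) overlapped.

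Cd93, the lectin receptor, had 105 UMIs (88.7 CPM) in Glutoborin and 58 UMIs (44.0 CPM) in Vehicle classical-like monocytes, a log2 ratio of 1.01 (0.54 to 1.5). The Vehicle level rested on few cells, with 69.0% of its UMIs in 10 of 107 cells, against 43.8% in 10 of 93 Glutoborin cells. Without the 10 richest cells of each library the log2 ratio was 1.87 (1.09 to 2.72), from 59 Glutoborin and 18 Vehicle UMIs. In cluster M2 it had 25 UMIs (67.1 CPM) in the Glutoborin library and 19 UMIs (22.1 CPM) in the Vehicle library, a log2 ratio of 1.60 (0.68 to 2.54). There 84.0% of the Glutoborin UMIs lay in 10 of 34 cells, and the 4 Glutoborin and 4 Vehicle UMIs outside the 10 richest cells of each library gave 1.58 (-0.84 to 4.01), so that interval no longer lay above 0. B cells held the larger part of the gene's UMIs, 43.9% in Glutoborin and 47.9% in Vehicle, at a low level per cell of 8.04 CPM in Glutoborin and 5.71 CPM in Vehicle B cells. Among the 9 B-cell clusters its level reached 20.3 CPM in Glutoborin and 18.8 CPM in Vehicle cells of the cluster led by Vpreb3 and Fam129c.

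Apoe, the apolipoprotein, differed most between the libraries in classical-like monocytes among the classes compared. It had 1223 UMIs (1033 CPM) in Glutoborin classical-like monocytes and 235 UMIs (178 CPM) in those of Vehicle, a log2 ratio of 2.54 (2.33 to 2.74). The median cell held 6.12 UMIs per 10000 in the Glutoborin library and 0 in the Vehicle library, with 90th percentiles of 26.9 in Glutoborin and 6.88 in Vehicle cells. At least 10 UMIs were found in 42 of 93 Glutoborin and 8 of 107 Vehicle cells, and without the 10 richest cells of each library the log2 ratio was 2.85 (2.56 to 3.16). In cluster M2 Apoe had 596 UMIs (1599.8 CPM) in Glutoborin and 501 UMIs (583 CPM) in Vehicle cells, a log2 ratio of 1.46 (1.28 to 1.63). Nonclassical-like monocytes did not share this difference: 405 UMIs (1819 CPM) in Glutoborin and 410 UMIs (2022 CPM) in Vehicle cells gave a log2 ratio of -0.15 (-0.35 to 0.05). There 73.2% of the Vehicle UMIs lay in 10 of 40 cells, and without the 10 richest cells of each library the ratio was 0.36 (0.00 to 0.72). The clusters were thus spread over a narrower range in the Glutoborin library, where classical-like and nonclassical-like cells stood at 1033 and 1819 CPM, than in the Vehicle library, where they stood at 178 and 2022 CPM.

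Apoc2, the lipase cofactor, showed 508 UMIs (429 CPM) in Glutoborin and 189 UMIs (143 CPM) in Vehicle classical-like monocytes, a log2 ratio of 1.58 (1.34 to 1.83). It was seen in 86 of 93 Glutoborin and 67 of 107 Vehicle cells of that cluster. Nonclassical-like monocytes had the highest level among the classes in both libraries, 786 CPM in Glutoborin and 409 CPM in Vehicle, a log2 ratio of 0.94 (0.56 to 1.34). Cluster M2 held 260.4 CPM in Glutoborin and 156 CPM in Vehicle, a log2 ratio of 0.74 (0.35 to 1.13), which was 0.49 (-0.14 to 1.09) without the 10 richest cells of each library. Outside monocytes the gene was scarce, with 3 Glutoborin and 2 Vehicle UMIs in red pulp macrophages, where Apoe was highest. Apoc2 and Apoe therefore shared a neighbourhood on chromosome 7 and a place in monocytes, but not the macrophage level.

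Pltp, the phospholipid transfer protein, was highest in plasmacytoid dendritic cells, for which it was among the 10 leading genes, with 810.2 CPM in the Glutoborin and 899 CPM in the Vehicle library, a log2 ratio of -0.15 (-0.43 to 0.13). Among the monocyte clusters it was lowest in the classical-like one, where Fn1 was highest. Classical-like cells had 41 UMIs (34.6 CPM) in Glutoborin and 17 UMIs (12.9 CPM) in Vehicle, a log2 ratio of 1.43 (0.58 to 2.34), and 14 Glutoborin and 3 Vehicle UMIs without the 10 richest cells of each library gave 2.40 (0.56 to 4.84). Cluster M2 had 60 UMIs (161 CPM) in Glutoborin and 54 UMIs (62.8 CPM) in Vehicle, a log2 ratio of 1.36 (0.80 to 1.92), which was 0.36 (-0.97 to 1.57) without the 10 richest cells of each library. Nonclassical-like cells had 30 UMIs (135 CPM) in Glutoborin and 7 UMIs (34.5 CPM) in Vehicle, a log2 ratio of 1.96 (0.75 to 3.40). The 7 Vehicle UMIs came from 4 cells, and without the 10 richest cells of each library 5 Glutoborin and 0 Vehicle UMIs remained, so the size of that ratio is poorly fixed.

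**Figure D2:**
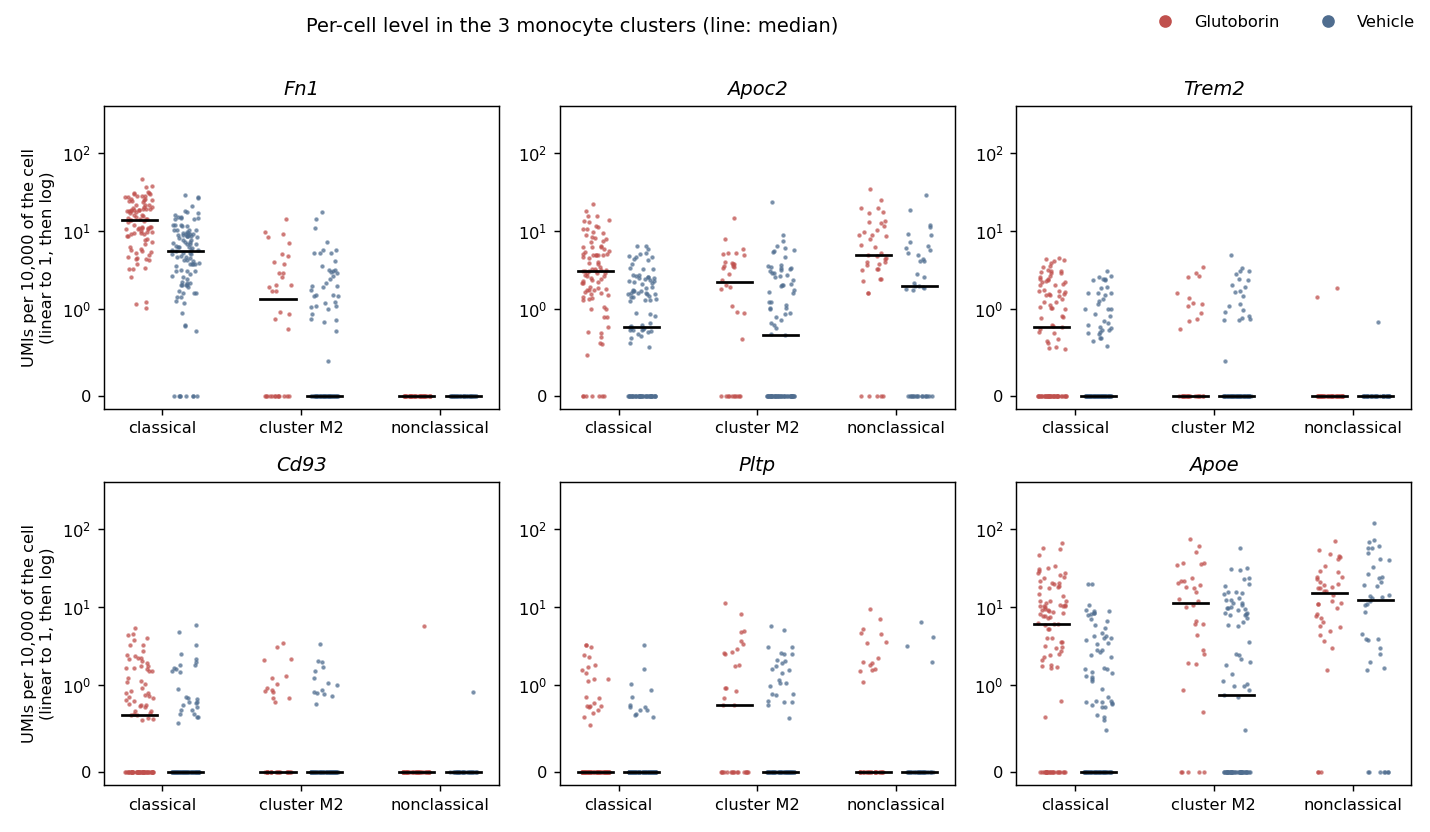
UMIs of each gene per 10000 UMIs of the cell in the 3 monocyte clusters, 1 point per cell, Glutoborin left of Vehicle, black lines at the median, on an axis linear to 1 and logarithmic above. In classical-like monocytes the median cell held 13.8 Fn1 UMIs per 10000 in Glutoborin and 5.48 in Vehicle, and 6.12 Apoe UMIs in Glutoborin and 0 in Vehicle, while nonclassical-like cells had similar Apoe medians of 15.2 and 12.5.

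The cluster mix differed between the libraries, so the ratios were also set against a common mix. With the Glutoborin clusters weighted as in Vehicle, the Fn1 log2 ratio in monocytes was 1.20, and those of the other 5 genes moved by less than their counting intervals. Clustering with the 6 genes left out of the variable genes gave classical-like log2 ratios of 1.17 for Fn1, 1.34 for Apoc2, 1.49 for Trem2, 0.76 for Cd93, 0.91 for Pltp and 2.21 for Apoe. Of these the Pltp interval reached below 0 (-0.04 to 1.91), and the other 5 lay above it. Both settings were chosen after the data had been seen.

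**Figure D3:**
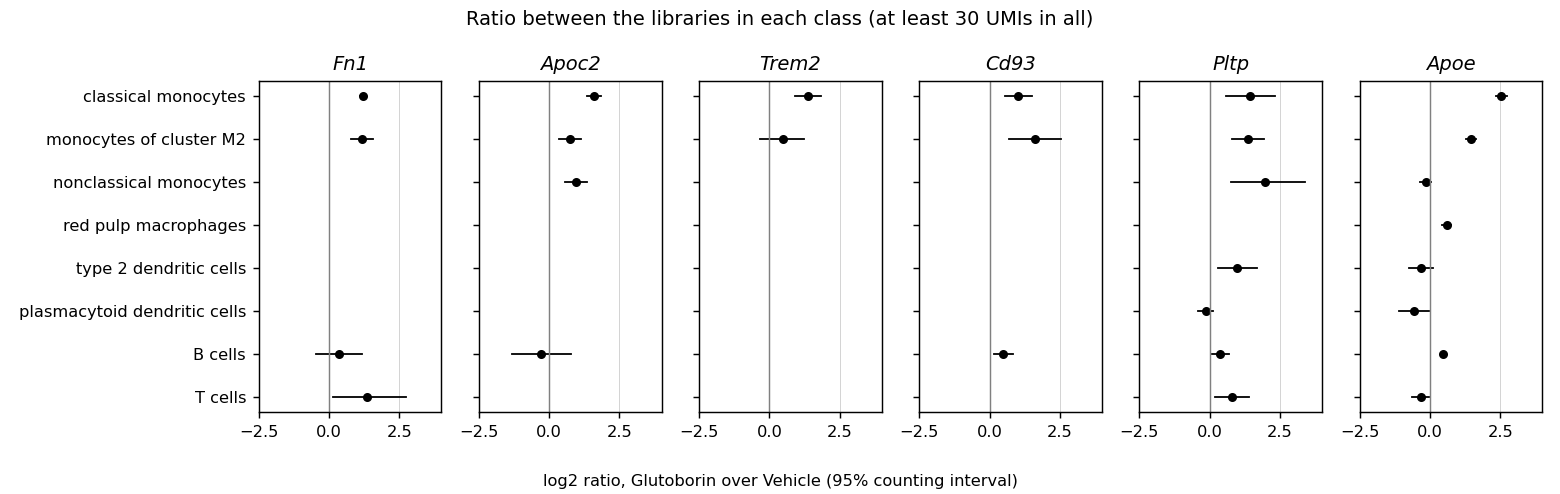
Log2 ratio of each gene, Glutoborin over Vehicle, in 8 cell classes, with exact 95% counting intervals, shown where both libraries together had at least 30 UMIs. All 6 genes lay above 0 in classical-like monocytes, from 1.01 for Cd93 to 2.54 for Apoe, whereas Apoe was at -0.15 in nonclassical-like monocytes and -0.55 in plasmacytoid dendritic cells.

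Thinned to 2000 UMIs per cell, every gene was detected in a larger share of Glutoborin monocytes than of Vehicle monocytes. Thinning left out 0 Glutoborin and 10 Vehicle cells. Among Glutoborin monocytes 56.3% (48.4 to 63.9%) had an Fn1 UMI, and among Vehicle monocytes 39.4% (33.0 to 46.1%) did (68.3% and 58.5% with all UMIs). Apoe had one in 65.3% of Glutoborin and 34.1% of Vehicle monocytes (80.8% and 55.5% with all UMIs), and Apoc2 in 47.9% of Glutoborin and 25.7% of Vehicle monocytes (86.8% and 57.6%). The 3 scarcer genes were detected less often, Trem2 in 15% of Glutoborin and 7.08% of Vehicle monocytes, Cd93 in 10.8% and 4.42%, and Pltp in 12% and 5.75%. With all UMIs these shares were 42.5% of Glutoborin and 24.6% of Vehicle monocytes for Trem2, 38.9% and 18.2% for Cd93, and 33.5% and 18.2% for Pltp. In T cells, which should lack Apoe and have median depths of 5667 UMIs in Glutoborin and 6534 in Vehicle, thinned Apoe detection was 1.76% in Glutoborin and 2.67% in Vehicle. Thinned T-cell detection was 0.422% in Glutoborin and 0% in Vehicle for Fn1, 0.192% and 0% for Cd93, and 0.652% and 0.462% for Pltp. It was 0.115% and 0.154% for Apoc2, and 0% and 0.0514% for Trem2. With all UMIs the T-cell log2 ratio was 1.36 (0.16 to 2.73) for Fn1 and 0.78 (0.19 to 1.39) for Pltp. NK cells held 9 Glutoborin UMIs and 1 Vehicle UMI of Fn1. The part of such background in the monocyte ratios was not tested. In B cells, at median depths of 4103 UMIs in Glutoborin and 4738 in Vehicle, thinned detection was 0.295% in Glutoborin and 0.259% in Vehicle for Fn1, 0.138% and 0.144% for Apoc2, 1.47% and 1.06% for Cd93, and 2.18% and 1.47% for Pltp. Trem2 had 1 UMI in all Glutoborin B cells and 0 in those of Vehicle, while Apoe was detected in 18.6% of thinned Glutoborin and 15.5% of thinned Vehicle B cells.

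The genes were also found together in more Glutoborin monocytes. At least 3 of the 6 had a UMI in 126 of 167 Glutoborin and 99 of 236 Vehicle monocytes, and after thinning in 54 of 167 Glutoborin (32.3%, 25.3 to 40%) and 17 of 226 Vehicle cells (7.52%, 4.44 to 11.8%). Among classical-like cells the thinned counts were 43 of 93 Glutoborin and 10 of 107 Vehicle cells. Since each gene was detected more often in the Glutoborin library, more cells with several genes follow from the single shares, and no test of joint detection was made.

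**Figure D4:**
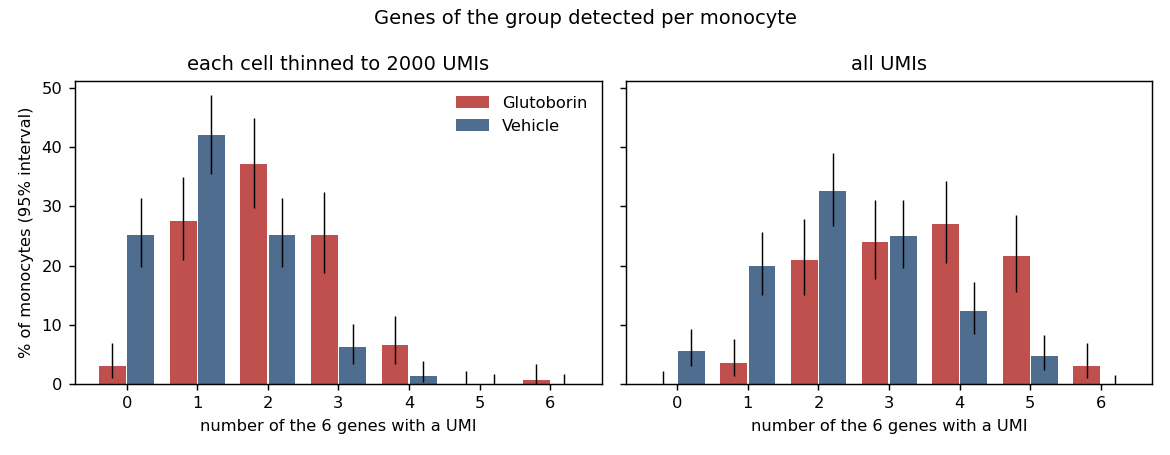
Share of monocytes, in percent with exact 95% binomial intervals, by how many of the 6 genes had a UMI, after thinning to 2000 UMIs (left) and with all UMIs (right), Glutoborin bars left of Vehicle bars. After thinning 32.3% of Glutoborin and 7.52% of Vehicle monocytes held at least 3 of the genes.

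Over all monocytes Trem2 and Cd93 went with Fn1, and Apoe and Pltp did not. Trem2 was detected in 57.0% of Glutoborin monocytes with an Fn1 UMI and 11.3% of those without, and in 32.6% and 13.3% of Vehicle monocytes. Cd93 was detected in 51.8% of Glutoborin monocytes with an Fn1 UMI and 11.3% of those without, and in 23.2% and 11.2% of Vehicle monocytes. Apoe ran the other way, with 75.4% of Fn1-positive against 92.5% of Fn1-negative Glutoborin monocytes, and 49.3% against 64.3% in Vehicle. Fn1-positive cells were deeper, with median UMIs of 12239.5 against 5765 in Glutoborin and 12245 against 8198.5 in Vehicle. The cluster mix differed too: all 40 nonclassical-like cells of each library lacked Fn1, among 53 Fn1-negative Glutoborin and 98 Fn1-negative Vehicle monocytes. Of these nonclassical-like cells 5% in Glutoborin and 2.5% in Vehicle had Trem2, and 92.5% in Glutoborin and 82.5% in Vehicle had Apoe. The parts of depth and cluster mix in these shares were not tested. Within the classical-like cluster all 93 Glutoborin cells had an Fn1 UMI, so no relation to Fn1 can be read there. Trem2 and Cd93 showed little relation in that cluster: Cd93 was detected in 53.6% of Glutoborin cells with Trem2 and 54.1% of those without, and in 25.7% and 26.4% of Vehicle cells.

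Red pulp macrophages, with 44 Glutoborin and 38 Vehicle cells, were shallow, at median depths of 2028.5 and 1632 UMIs. Apoe had 719 UMIs (4994 CPM) in Glutoborin and 459 UMIs (3309 CPM) in Vehicle macrophages, a log2 ratio of 0.59 (0.42 to 0.77). It was the only one of the 6 with at least 50 UMIs there, and 11.4% of the 903 such genes were at least 1.5-fold higher in Glutoborin macrophages and 9.63% at least 1.5-fold lower. Pltp had 12 UMIs in 8 of 44 Glutoborin macrophages and 0 in Vehicle macrophages, at least 3.85-fold higher against a limit of 3 UMIs in the Vehicle library. Markers of other cells differed between the libraries in this class. Erythroid markers summed to 1341 CPM in Glutoborin and 28.8 CPM in Vehicle macrophages, with Hbb-bs, the highest of the 7 in Glutoborin, in 6.82% of Glutoborin and 2.63% of Vehicle cells. T-cell markers summed to 146 CPM in Glutoborin and 606 CPM in Vehicle macrophages, and B-cell markers to 382 CPM in Glutoborin and 692 CPM in Vehicle. The part of these cells in the Apoe and Pltp values was not tested. A macrophage cluster with T-cell genes, 35 Glutoborin and 37 Vehicle cells, was kept out of the class.

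In type 2 dendritic cells, 106 in the Glutoborin and 75 in the Vehicle library, only Pltp and Apoe reached 50 UMIs. Pltp had 74 UMIs (70.9 CPM) in Glutoborin and 25 UMIs (35.9 CPM) in Vehicle cells, a log2 ratio of 0.98 (0.31 to 1.70), beside 5.33% of 4633 genes at least 1.5-fold higher and 8.61% lower. Without the 10 richest cells of each library, 37 Glutoborin and 6 Vehicle UMIs gave 1.95 (0.69 to 3.49). Those 10 cells are a larger part of the Vehicle than of the Glutoborin cells of this class. By itself this tends to raise the ratio, for Apoe as well as for Pltp. Apoe had 103 CPM in Glutoborin and 129 CPM in Vehicle cells, a log2 ratio of -0.32 (-0.74 to 0.10). Of the Vehicle UMIs 85.6% lay in 10 of 75 cells, and the direction changed under 2 settings: without the 10 richest cells of each library the ratio was 1.21 (0.30 to 2.22), and with barcodes of at least 2000 UMIs it was 0.53 (0.16 to 0.91). Red pulp macrophage markers were also higher in the Glutoborin cells of this class, with 459.8 CPM in sum against 197 CPM in Vehicle, and all 5 of these genes with at least 50 UMIs were at least 1.5-fold higher, C1qb at 1.93 (1.25 to 2.67) among them. Their part in the Pltp ratio was not tested. Type 1 dendritic cells, 18 in Glutoborin and 10 in Vehicle, held UMIs of Apoe and of no other gene of the 6, and mature dendritic cells held at most 3 UMIs of each gene other than Apoe in either library.

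Among lymphocytes, B cells carried Apoe at a level well above that of T and NK cells. They averaged 185 CPM in the Glutoborin and 133 CPM in the Vehicle library, a log2 ratio of 0.48 (0.41 to 0.55), and held 47.6% of Glutoborin and 50.5% of Vehicle Apoe UMIs in kept cells. Over 9 B-cell clusters the level ran from 34.0 to 512 CPM in Glutoborin and from 29.9 to 436 CPM in Vehicle, with the same cluster highest in both. All 9 clusters were higher in Glutoborin, and in 5 the interval lay above 0. T cells held 10.8 CPM in Glutoborin and 13.5 CPM in Vehicle, a log2 ratio of -0.32 (-0.63 to -0.02).

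Across 22 profiles, 11 classes in 2 libraries, the genes whose log2 CPM pattern was most like each of the 6 were named from 10349 genes by Pearson's r. The profiles share libraries and depth, and the values are descriptions. Fn1, Apoc2, Pltp and Apoe were among the variable genes used for clustering, and F13a1 was among the markers that named the classes. Part of these likenesses is therefore built in. Fn1 was most like F13a1, a coagulation factor subunit of monocytes (r = 0.97), Prtn3, a granule protease (0.95), and Trem2 (0.95). Trem2 was most like Plcb1 (0.97), Fn1 (0.95) and Ms4a8a (0.94), and Cd93 was most like Fn1 (0.88), Mcub (0.87) and Cd300lg (0.87). Apoc2 was most like Smpdl3a, a phosphodiesterase of macrophages (0.94), Abcd2 (0.92) and Zfyve9 (0.92). Apoe was most like Ptprj (0.91), Sh3bp2 (0.90) and Epn1 (0.90), and Pltp was most like Arhgap27os2 (0.87), Sh2b2 (0.86) and Ppfia4 (0.85). Fn1 and Pltp were nearly unrelated (0.11).

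The wider gene lists of these pathways differed less than the 6 genes in monocytes, where the median log2 ratio of all tested genes was -0.00. Since this contrast chose 5 of the 6, neither that gap nor their place at the top of lists that hold them is a finding. Of 11 measured genes of apolipoproteins and lipoprotein remodelling 5 were at least 1.5-fold higher and 0 lower (median 0.42), and 3 of the 5 were Apoe, Apoc2 and Pltp. Of 14 liver X receptor targets and cholesterol efflux genes 2 were higher, Apoe and Pltp, and 1 was lower, the small GTPase Arl4c at -0.79 (median 0.05). Of 20 Trem2 signalling and lipid-associated macrophage genes 3 were higher and 1 lower (median 0.26), with the fatty acid carriers Fabp4 at 0.70 and Fabp5 at -0.80. In these 3 lists the highest ratio belonged to one of the 6 genes. Lpl, the lipase that Apoc2 activates, had 153 Glutoborin and 168 Vehicle UMIs, a log2 ratio of 0.29, and Tyrobp, the Trem2 adaptor, was at 0.17. These 2 genes and Apoc1, at 1.18 with 49 Glutoborin and 29 Vehicle UMIs, were named after their values had been seen.

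Of 11 matrix and matrix-modifying genes 4 were higher and 1 lower (median 0.34). Fn1 led them, followed by the collagenase Mmp8 at 0.85, and the lower gene was the syndecan Sdc3 at -0.76. Among 11 fibronectin receptors and adhesion genes Itgb5, an integrin chain, was higher at 1.07 and 0 were lower (median 0.01). Of 10 genes of the Cd93 family and apoptotic cell uptake 2 were higher, Cd93 and the complement gene C1qb at 0.97, and the receptor Axl was lower at -1.14 (median 0.20).

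Monocyte identity genes shifted less evenly. Of 8 classical monocyte genes 1 was higher, Vcan at 0.68, and 1 lower, Ly6c2, with 3737 CPM in Glutoborin and 6504 CPM in Vehicle monocytes, a log2 ratio of -0.80 (median -0.10). Of 10 nonclassical monocyte genes none passed 1.5-fold in either direction (median 0.19). These pooled values hide differences between clusters, where genes with at least 20 UMIs were counted. The classical gene medians were -0.09 in classical-like cells, -0.50 in cluster M2 and -1.01 in nonclassical-like cells. For the nonclassical genes the medians were 0.32, -0.32 and 0.07 in that order. Among 8 genes of monocyte to macrophage differentiation 1 was higher and 0 lower (median 0.23), and among 5 red pulp macrophage genes 1 was higher and 2 lower, with Hmox1, the haem oxygenase, at -1.15 (median 0.24). Of 4 neutrophil genes 3 were higher (median 0.84). With at least 20 UMIs, 3 of 4 were higher and 0 lower in classical-like cells, and 1 of 4 was higher and 2 lower in cluster M2. Of 23 type I interferon-induced genes 0 were higher and 21 lower (median -0.95), from Ifi44 at -1.87, and taking this list out of the class totals left the 6 ratios within their counting intervals.

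**Figure D5:**
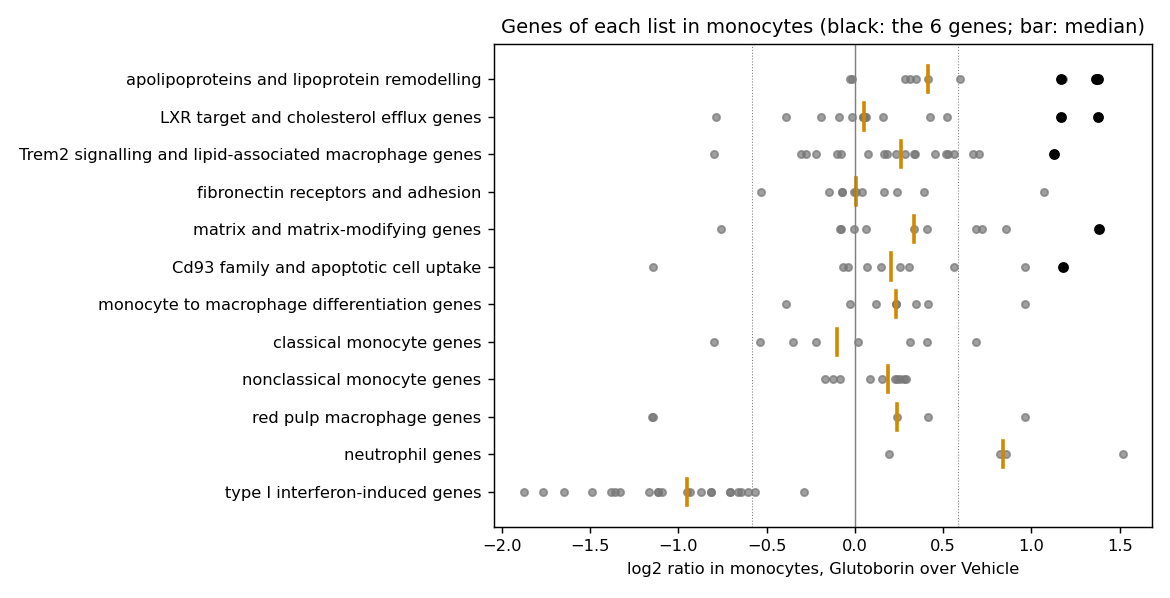
Log2 ratio in monocytes, Glutoborin over Vehicle, of the measured genes of 12 lists, 1 point per gene, with the 6 genes in black, the list median as a bar and dotted lines at 1.5-fold. The 6 genes, 5 of which this contrast had chosen, are the highest or among the highest points of their lists, and 21 of 23 interferon-induced genes lie below the lower line.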

How the data were processed

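The deposited matrices give UMI counts as whole numbers for each gene in each barcode, without normalization. Per the file headers they were written by Cell Ranger 6.1.2, while the submitters' processing notes list Cell Ranger 6.0.1, Seurat 4.3.0 and mm10. No source used here names the annotation release. Of 32285 feature IDs, 32235 matched GENCODE M21 (GRCm38). Groups were taken from the treatment in the labels.

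Barcodes with at least 500 UMIs, 300 genes and under 10% mitochondrial UMIs were kept, and Scrublet doublets (352 Glutoborin, 196 Vehicle) left out. Cells were clustered with scanpy 1.11.5 on Python 3.11.15 (2000 variable genes, 30 components, Leiden resolution 1.5), and myeloid clusters again at resolution 1. A name needed 3 markers of its class in at least 20% of a cluster's cells, and clusters with core genes of more than 1 lineage stayed unnamed. These limits were set after the clusters had been seen, and differences may come from rebuilt names. UMIs were summed per class and library and divided by the class total. Ratios have exact conditional Poisson intervals (scipy 1.17.1) and shares have Clopper-Pearson intervals. Only the ratio intervals were run on simulated counts. Those counts were independent Poisson draws, so the run cannot show how the intervals hold where UMIs lie in few cells. Lists count genes with at least 50 UMIs past 1.5-fold.

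Named genes were the 6 genes, the 2 highest and 2 lowest of each list past 1.5-fold, the 3 most alike by correlation of log2(CPM + 10), and ranks near the last member. The 6 genes, the lists and the tests were chosen with earlier results of these data known. UMIs of a cell are not independent of its state, so intervals cover counting error only.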

Additional observations from a re-analysis of the deposited data

Results flagged for a closer look

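Apoe stood out because its log2 ratio, Glutoborin over Vehicle, lay above 0 in some classes and below 0 in others, in each case with a counting interval on 1 side of 0. It was 1.38 in monocytes, 0.59 in red pulp macrophages and 0.48 in B cells, and -0.55 in plasmacytoid dendritic cells and -0.32 in T cells. The difference between the classes was not tested, since each library is 1 sample. In plasmacytoid dendritic cells 98.0% of the 50 Glutoborin UMIs and 97.5% of the 80 Vehicle UMIs lay in 10 cells, and 1 Glutoborin and 2 Vehicle UMIs remained without the 10 richest cells. T cells held 10.8 CPM in Glutoborin and 13.5 CPM in Vehicle. B-cell markers summed to 469.9 CPM in Glutoborin and 1029 CPM in Vehicle plasmacytoid dendritic cells, and to 154 CPM in Glutoborin and 225 CPM in Vehicle T cells. In red pulp macrophages erythroid markers summed to 1341 CPM in Glutoborin and 28.8 CPM in Vehicle. The part of these cells in the Apoe ratios was not tested.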

How the results depend on the processing

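No paired analysis was possible because each group is 1 library, and for the same reason no replicate could be left out. As point estimates, the monocyte log2 ratios stayed above 0 for Fn1 (13 settings, 1.17 to 1.45), and in 14 settings each for Apoc2 (0.74 to 1.58), Trem2 (0.47 to 1.49), Cd93 (0.76 to 1.66) and Pltp (0.91 to 1.96), while Apoe was above 0 in 13 of 14 (-0.15 to 2.54). Some intervals of the estimates above 0 reached below it. Within nonclassical-like monocytes Trem2 and Cd93 each rested on 2 Glutoborin UMIs and 1 Vehicle UMI, at 0.86 (-3.40 to 6.75). The others were Trem2 within cluster M2 (-0.33 to 1.23) and Pltp within classical-like cells with the 6 genes left out of clustering (-0.04 to 1.91). Since this contrast chose 5 of the genes, these counts are no evidence of their own. Within classical-like monocytes Fn1 was at 1.20, Apoc2 at 1.58 and Apoe at 2.54, and with the 6 genes left out of clustering Fn1 was at 1.17, Cd93 at 0.76 and Apoe at 2.21. Within nonclassical-like monocytes Apoc2 was at 0.94, Pltp at 1.96 and Apoe at -0.15, with an interval on both sides of 0 (-0.35 to 0.05). Without the 10 richest cells of each library that Apoe ratio was 0.36 (0.00 to 0.72), so its direction is not fixed. Within cluster M2 Fn1 was at 1.18, Apoc2 at 0.74 and Trem2 at 0.47. Weighting clusters as in Vehicle put Fn1 at 1.20, and leaving out the 10 richest cells put Cd93 at 1.66 and Apoe at 1.55. The causes of these shifts were not tested, beyond fewer cells entering. With genes of at least 20 UMIs, 551 genes were at least 1.5-fold higher and 657 lower in monocytes, against 246 and 368, since more scarce genes were counted. The settings within cluster M2, without the 6 genes within classical-like cells, with mixed clusters and with common weights were added after the data had been seen. Of 92 detection shares and single-class values 35 moved by more than their counting interval, and 2 of these changed direction: Apoe in type 2 dendritic cells, at -0.32, was at 1.21 without the 10 richest cells and at 0.53 with barcodes of at least 2000 UMIs. Depth limits Trem2, Cd93 and Pltp most, and 1 library per treatment cannot be told apart from treatment.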
